A study of Arabidopsis thaliana with 10 samples.

Results

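On 2 of the 10 arrays of an Arabidopsis thaliana seedling experiment, transcripts for secreted and membrane proteins known from plant defence stood far above their level on the other array of the same group. The 2 arrays were 24 h control Rep1 and 4 h dexamethasone Rep2. Their partners were 24 h control Rep2 and 4 h dexamethasone Rep1, and the other 6 arrays gave a range outside both groups. A probe set was called high (or low) on both arrays when each of the 2 within-group differences was at least 1 on the log2 scale in that direction, a change of 2-fold or more. This gave 119 high and 11 low probe sets of 14575 kept after a filter on low signals. The arrays were chosen from these measured values, so the differences between them are given as a description, with no test.

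RNA was measured in whole seedlings with the Col-0 background and a transposon knock-out of both AtGLK1 and AtGLK2, related transcription factors of chloroplast development. All groups share this genotype. The groups were dexamethasone at 4 h and at 24 h, and the DMSO control at 0 h, 4 h and 24 h, with 2 arrays each. Seedlings grew for 10 days on agar with 20 ug/ml hygromycin, then for 48 h in shaken liquid medium with about 100 seedlings per flask, at 20 C under 16 h light and 8 h dark. Dexamethasone is a steroid used to switch on inducible transgenes, but the labels used here name no transgene and no promoter. Whether Rep1 and Rep2 were grown apart is not stated either, so a p-value here reflects sample-to-sample spread that could be purely technical. The root marker PYK10, a beta-glucosidase of root ER bodies, had 3529 and 3958 signal units on the high arrays, against 3158 and 3393 on their partners. The leaf marker RCA, the Rubisco activase, had 5793 and 5248, against 5580 and 4592. The other kept root markers, EXPA7 and AT2G39040, were lower on the high array in both groups, and the root list had a median difference of -0.41. In whole seedlings, a change in the share of a cell type and a change in RNA per cell cannot be told apart.

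As background, plant cells carry surface receptors that recognise microbial or damage-derived molecules. These receptors act through calcium, reactive oxygen, kinases and transcription factors such as WRKY proteins, and the outcome includes secretion of chitinases, peroxidases, protease inhibitors, defensins and lipid transfer proteins into the cell wall. Many of the same genes also respond to wounding, osmotic stress, hypoxia or ageing.

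The signals are MAS5 values on a linear scale, and differences are of log2(signal + 4.35). Where a pair of signals or differences is given for a gene, they are those of the 24 h control group and then of the 4 h dexamethasone group. Over all 14575 probe sets the median of the mean of both differences was -0.03. The high calls made up 0.816% of all probe sets and the low calls 0.0755%. No probe set was called high in one group and low in the other. Of the 119 high probe sets, 68 had 1 gene in the annotation, 3 had several and 48 had none. The 68 named genes were 0.861% of the 7898 probe sets with 1 gene. Of the 11 low probe sets, 6 were named, 0.076%. The 24 h control group alone had 254 high probe sets and the 4 h dexamethasone group alone had 229. The shared 119 were 46.9% of the first set and 52.0% of the second. Of the low ones, 11 were shared, which was 13.6% of the 81 in the 24 h control group and 8.33% of the 132 in the 4 h dexamethasone group.

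**Figure D1:**
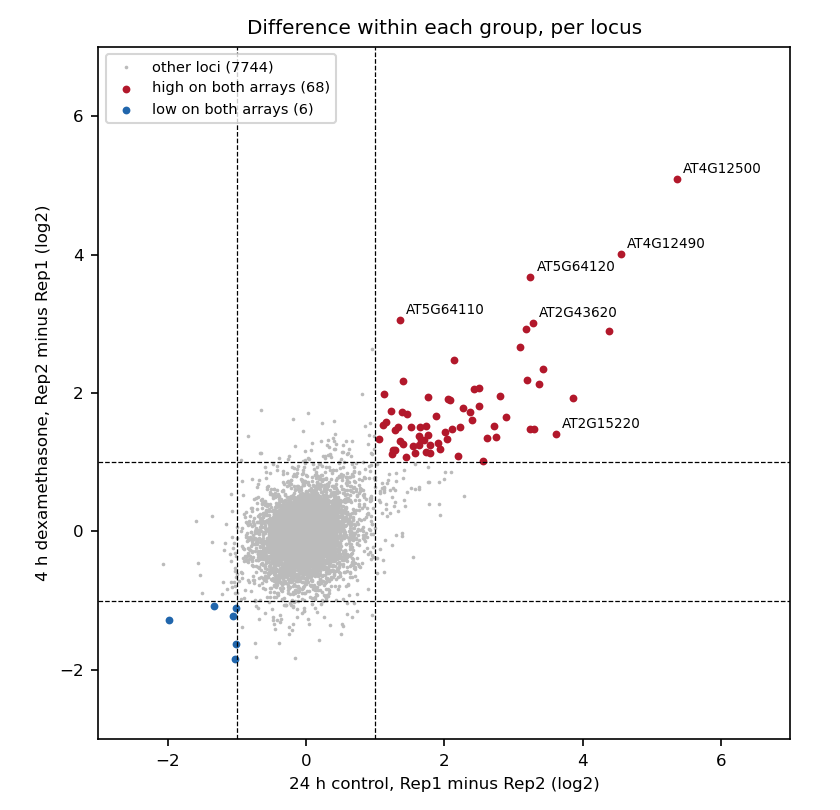
Difference within the 24 h control group (Rep1 minus Rep2, log2, x axis) against that within the 4 h dexamethasone group (Rep2 minus Rep1, log2, y axis) for 7818 loci, 1 point each, with dashed lines at the threshold of 1. The 68 loci high on both arrays (red) reach 5.35 and 5.09 at AT4G12500, and the 6 low loci (blue) reach -1.98 in the 24 h control group.

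The largest differences belonged to a pair of nearby genes for proline-rich lipid transfer-like proteins, AT4G12500 and AT4G12490. They belong to the gene cluster of AZI1, a protein known for its part in systemic defence priming. AT4G12500 had a signal of 2011 on 24 h control Rep1 and 2581 on 4 h dexamethasone Rep2, against 44.9 and 71.6 on their partners and 60.2, 85.3 and 96.7 as the lowest, median and highest of the other 6 arrays. Both high arrays lay far above all others, by 5.35 and 5.09 on the log2 scale within the 2 groups. AT4G12490 had 3580 and 5969 on the high arrays, 149 and 368 on the partners, and 169, 344 and 484 on the other 6. Its partners were within or just below the range of the 6. The sequences of these paralogs are similar, so how far each probe set reads the other is uncertain. AT4G22470, another protein of the lipid transfer family, had 540 and 611, against 73.9 and 155 on the partners and 112, 176 and 249 on the 6.

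Of the class III peroxidases, 6 were high on both arrays. These secreted enzymes make or use hydrogen peroxide in the cell wall and cross-link its polymers. AT5G64120 had 3088 and 4384 on the high arrays, 323 and 339 on the partners, and 317, 418 and 455 on the other 6. AT5G39580 had 330 and 296, against 32.5 and 35.4 on the partners and 39.8, 45.3 and 53.4 on the 6. In both genes the high arrays did not overlap with any other array. The remaining peroxidases differed more between the groups. PRX52, known for a role in lignin formation, had 98.5 and 42.1, against 2.73 and 7.85 on the partners and at most 9.41 on the 6. AT5G64110 had its larger difference in the 4 h dexamethasone group, with 58.8 and 139 on the high arrays, 20.4 and 12.9 on the partners and 32 as the highest of the 6. Its within-group differences were 1.35 for the 24 h control and 3.05 for 4 h dexamethasone. Of the 6, AT1G49570 alone had high arrays that overlapped the range of the 6, with 108 and 67.2 against a highest value of 74.0. Prx37 had 387 and 308, against 81.1 and 142 on the partners and at most 200 on the 6.

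Of the chitinases, enzymes that cut the chitin of fungal cell walls, 3 were high. AT2G43620 had 1308 and 1287 on the high arrays, 131 and 156 on the partners, and 146, 213 and 332 on the other 6. The high arrays had nearly equal values and did not overlap with the 6. CHI (AT2G43570) had 305 and 96.6, against 27.2 and 31.7 on the partners and at most 42.7 on the 6. AT4G01700 had 257 and 190, against 45.3 and 59.4 on the partners and at most 99.2 on the 6.

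A group of 4 genes codes for defensin-like, osmotin-like and protease inhibitor proteins. AT2G38870, a protease inhibitor of the PR-6 family, had 1780 and 1551 on the high arrays, 328 and 369 on the partners, and 340, 425 and 477 on the other 6. AT1G72060, a predicted serine protease inhibitor, had 102 and 55.6, against 14.5 and 12.8 on the partners and at most 19.7 on the 6. OSM34, an osmotin-like protein, had 1462 and 1276, against 428 and 483 on the partners and 451, 529 and 604 on the 6. The high arrays of these genes exceeded all 8 others. The defensin-like PDF1.4 had 96.3 and 97.1, against 20.0 and 22.7 on the partners and at most 52.8 on the 6.

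Among secreted proteases and their relatives, AT2G15220, a basic secretory protein, had 184 and 43.3, against 11.1 and 13.6 on the partners and at most 21.6 on the other 6. Its difference of 3.61 in the 24 h control group was the largest excess over the 4 h dexamethasone group, 1.41, among the named genes. Its probe set is of the _s_at type, which matches several transcripts, so related transcripts may add to it. AT5G48430, an aspartyl protease, had differences of 2.75 and 1.36, and the subtilase SBT3.5 had 1.64 and 1.37. Of the secreted proteins with cysteine-rich repeats, 3 were high, and AT5G48540, AT3G22060 and AT5G41280 had mean differences between 1.33 and 1.59.

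Genes for proteins with leucine-rich repeats or malectin-like domains, most of them receptor kinases, numbered 9, with mean differences from 1.18 to 2.28. How many such genes were measured was not counted, so no excess is read from the 9. AT3G46280, a malectin-like kinase relative, had 371 and 342 on the high arrays, 62.2 and 78.0 on the partners, and 74.2, 89.9 and 99.9 on the other 6. AT1G51890, a leucine-rich repeat kinase, had 90.1 and 47.8, against 8.39 and 12.2 on the partners and at most 16.8 on the 6. AT4G08850, known as the SCOOP peptide receptor MIK2, had 453 and 422, against 155 and 146 on the partners and 141, 183 and 199 on the 6. All 9 genes were above all of the other 6 arrays on both high arrays, as were 6.57% of all probe sets. They were called by their signals on the high arrays, so this count is a description. The differences of AT4G08850 were almost the same in both groups, 1.52 and 1.50. The kinases AT1G51790, AT1G51850 and AT1G51860 had mean differences of 1.99, 1.85 and 1.39. AT5G45510, a leucine-rich repeat protein, had 418 and 548 on the high arrays, 175 and 250 on the partners, and 177 to 239 on the 6, and its partner at 4 h also exceeded the 6.

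Transcription regulators numbered 4, with mean differences from 1.37 to 2.88. The VQ-motif protein AT2G22880, a relative of WRKY partners, had 45.4 and 25.8 on the high arrays, 1.50 and 0.395 on the partners, and at most 6.30 on the other 6. WRKY53, a transcription factor of defence and ageing, had 40.8 and 30.4, against 15.9 and 7.32 on the partners and at most 16.4 on the 6. STZ, a zinc finger repressor of stress responses, had 74.3 and 90.8, against 14.8 and 33.4 on the partners and at most 50.1 on the 6. These signals were low, and the array file gives no detection calls. The size of the differences depends on the constant added before log2. AT2G22880 had a mean difference of 1.58 with a constant of 16 and 4.24 with a constant of 1. WRKY53 had 0.91 and 1.61, and STZ had 1.33 and 1.84. A group of 4 RING ubiquitin ligases and calmodulin-like proteins had mean differences between 1.23 and 1.45. Among them, AT5G53110, a RING protein, had 79.1 and 64.0 on the high arrays, 30.0 and 26 on the partners, and 22.7 to 35.1 on the 6.

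Metabolic enzymes, a group without the peroxidases, chitinases and proteases above, formed the largest role group of named genes. They numbered 10, with mean differences from 1.22 to 2.75. AT1G26420, a berberine bridge enzyme-like oxidase, had 80.4 and 29.8 on the high arrays, 3.89 and 3.42 on the partners, and at most 12.1 on the other 6. AT5G38900, a thioredoxin-fold protein of the DsbA family, had 120 and 50.0, against 9.25 and 7.53 on the partners and at most 14.7 on the 6. The others include a lipase (AT5G24210, mean difference 2.05), an acyltransferase (AT5G42830, 2.12) and a methyltransferase (AT2G41380, 1.798). CYP71B23, a cytochrome P450, had 296 and 217, against 64.1 and 35.3 on the partners and at most 86.1 on the 6. Of the 5 genes for transport or metal binding, 1 had its larger difference in the 24 h control group and 4 in the 4 h dexamethasone group. CHX16, a cation/H+ exchanger, had differences of 1.12 in the 24 h control group and 1.98 in the 4 h dexamethasone group. AT2G39210, a major facilitator transporter, had 2.26 and 1.79, and GLR2.7, a glutamate receptor-like channel, had 1.12 and 1.54. AT1G52200, a PLAC8 family protein, had 719 and 552 on the high arrays, 306 and 162 on the partners, and 203, 324 and 338 on the 6. Among the 8 genes left without a role was AT3G18250, with 286 and 108 on the high arrays, 9.59 and 10.7 on the partners, and at most 18 on the 6. AT2G25510, also without a role, was bright on every array, with 4357 and 5676 on the high arrays, 1313 and 2565 on the partners, and 1281, 2414 and 2941 on the 6.

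Proteins with C1 domains, a cysteine- and histidine-rich fold that binds zinc, numbered 3. AT2G17740 had 339 and 119 on the high arrays, 27.7 and 19.8 on the partners, and 22.7, 28.6 and 32.1 on the 6. AT2G44370 had 204 and 70.2, against 17.6 and 22.4 on the partners and at most 44.5 on the 6. In all 3 the larger difference was in the 24 h control group. AT1G65690, a relative of the membrane protein NDR1, and AT1G26250, an extensin-like wall protein, had mean differences of 1.78 and 1.73.

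**Figure D2:**
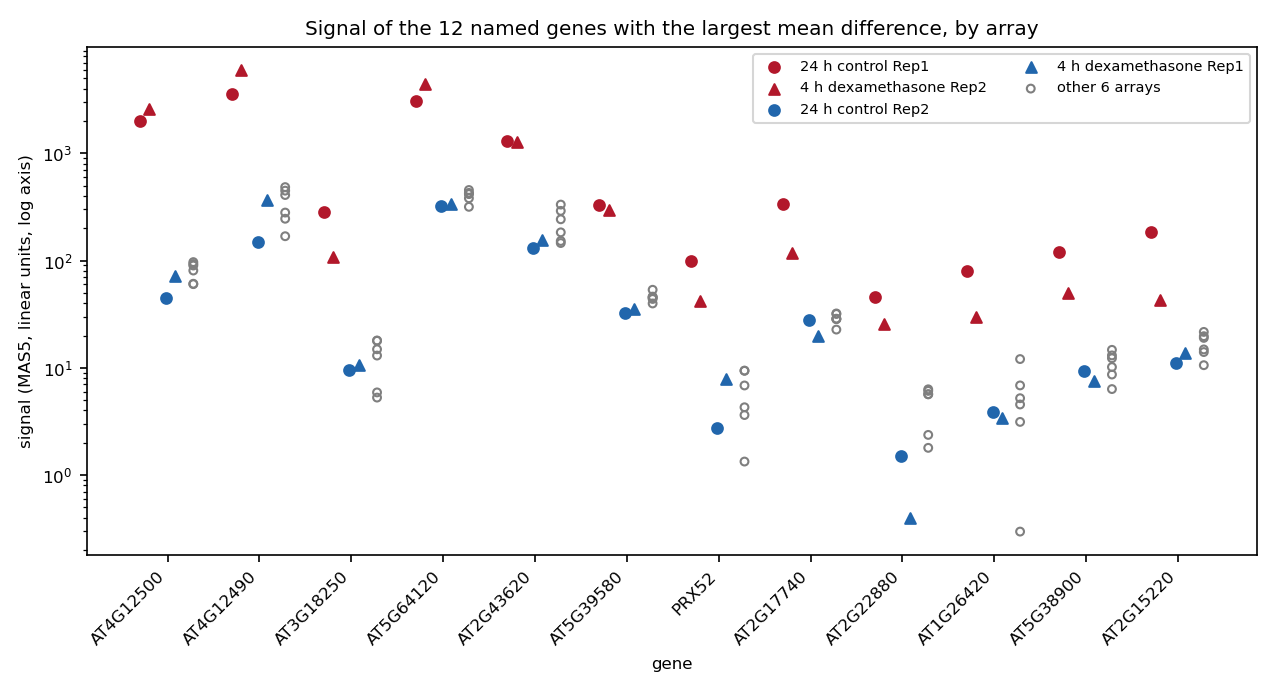
Signal (y axis, log scale) of the 12 named genes with the largest mean difference, on each of the 10 arrays. Red marks are the 2 high arrays, blue marks their partners and grey circles the other 6; for AT4G12500 the red marks are at 2011 and 2581 and all others at or below 96.7.

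**Figure D3:**
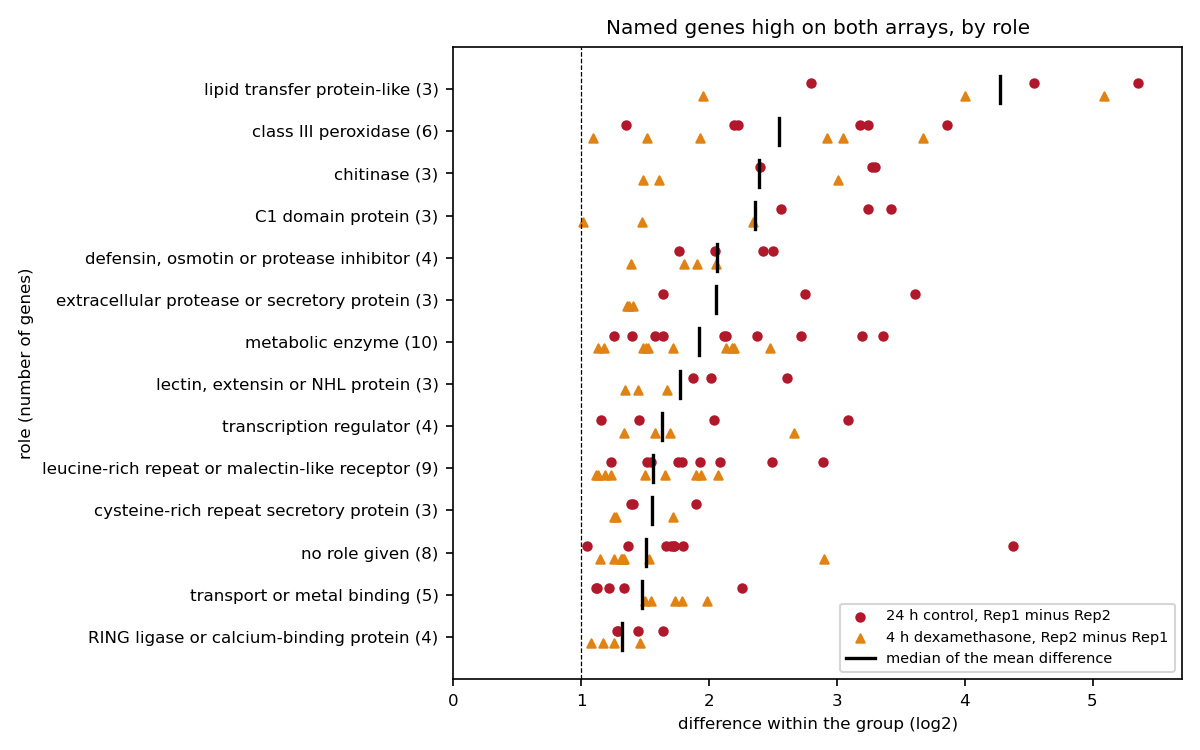
Within-group difference (x axis, log2) of the 68 named high genes, by role (y axis, number of genes in brackets), for 24 h control (circles) and 4 h dexamethasone (triangles), with the median of the mean difference as a bar. Lipid transfer-like genes have the highest median, 4.27, and class III peroxidases 2.55.

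The roles were assigned after the values were seen. Outside the lists given below, the measured genes of each role were not counted, so no excess is read from the role counts. In 92 of the 119 high probe sets the difference was larger in the 24 h control group, and in 27 it was larger in the 4 h dexamethasone group. The medians were 1.85 and 1.49, and 26 probe sets differed by more than 1 log2 unit between the groups. The mean difference was over 2 for 39 probe sets and over 3 for 7. Just inside the threshold, AT5G40590 had 2.56 and 1.01, AT1G22890 had 1.05 and 1.34, and AT5G39670 had 1.45 and 1.07. Just outside it, AT3G48080 had 0.98 and 1.38, AT2G23680 had 0.98 and 1.197, and AT3G07600 had 1.02 and 0.97. The high probe sets without a gene name included 267436_at, with 3.99 and 2.96, and 267565_at, with 4.50 and 1.49.

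The likeness of other genes to the 3 leading ones was measured as Pearson's r between deviations from the group mean over the 10 arrays. With 2 arrays per group, and 2 arrays that stand far from their partners, r mostly reads those 4 arrays. For AT4G12500 the highest r were those of AT2G38870 at 0.998, AT5G39580 at 0.995, AT4G34180 and AT5G64120 at 0.994, and AT4G08850 at 0.992. For AT5G64120 they were AT4G34180 and AT1G55450 at 0.996, AT4G12500 at 0.994, AT4G08850 at 0.991 and the tetraspanin TET8 at 0.990. For AT2G43620 they were AT5G52750 at 0.990, AT1G19960, AT4G01700 and AT1G76700 at 0.986, and AT4G01460 at 0.985. A high r came with small differences too: AT1G76700 had 0.17 and 0.17 in the 2 groups.

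Some high genes lie beside each other in the genome, by the gene order of the RefSeq annotation of TAIR10.1. Of the 68 named genes, 14 lay in 6 clusters within 10 genes of each other, and these clusters held 22 measured loci. How many of any other 68 loci would lie this close was not computed, so the count is a description. On chromosome 1, the receptor kinases AT1G51790, AT1G51850, AT1G51860 and AT1G51890 were high, while their neighbours AT1G51805 and AT1G51830 had mean differences of 0.32 and 0.85. On chromosome 2, the chitinases CHI and AT2G43620 were high, with AT2G43590 at 0.86 and AT2G43610 at 0.67 between them. On chromosome 5, the peroxidase genes AT5G64110 and AT5G64120 were neighbours, and on chromosome 4 AT4G12490 and AT4G12500 lay close together. The other clusters were Prx37 with AT4G08850 on chromosome 4 and AT5G39580 with AT5G39670, a calmodulin-like protein, on chromosome 5. Neighbouring paralogs can share probe sequence, and how far they do was not tested.

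Pathway genes and families were also read as whole lists. Over 7818 loci, 24.2% were positive in both groups, 32.8% were negative in both and 0.870% were high on both arrays. Of 39 lists, 24 had at least 3 members kept, 7 held a high gene and 0 held a low gene. The list of chitinases and glucanases had 17 loci, of which 9 were kept, 9 were positive in both groups, 3 were high and 8 were above all of the other 6 arrays on both high arrays. The median of the list was 0.96, against -0.03 over all loci. Since the arrays were chosen from these values, and the lists with earlier results known, such list medians and counts are a description. AT2G43620, a leading gene, is itself a member of this list. Among the members below the threshold, AT4G16260, a glucanase relative, had 1238 and 874 on the high arrays, against 413 and 567 on the partners and 475, 626 and 722 on the 6. ChiC, a chitinase, had 257 and 213, against 111 and 125 on the partners and at most 172 on the 6.

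Of 71 class III peroxidase loci 36 were kept, 6 were high, 14 were positive and 12 negative in both groups, and the median was -0.06. On both high arrays 9 lay above all of the other 6 and 7 below. AT1G34510 was on the low side, with 23.1 and 25.8 on the high arrays, 77.0 and 37.1 on the partners, and 29.2, 53.5 and 62.9 on the 6. In the lipid transfer list, 9 of 29 loci were kept and 3 were high, with a median of 0.14. AT4G22460, which lies near the high AT4G22470, had 20.6 and 12.5 on the high arrays, 37.3 and 29.4 on the partners, and 24.9, 37.5 and 42.2 on the 6.

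Of 24 loci known from pattern-triggered immunity 5 were kept, with a median of 0.70. All 5 were positive in both groups, against 24.2% of all loci. They were also above all of the other 6 on both high arrays, as were 6.57% of all probe sets. The arrays were chosen from these values, so both counts are a description. WRKY53 alone was high. The ubiquitin ligases PUB22, PUB23 and PUB24, which restrain this immunity, had mean differences of 0.70, 0.65 and 0.87, and the kinase BIK1 had 0.45. The salicylate list had 3 of 24 loci kept, 0 high and a median of 0.52, and the jasmonate list had 3 of 30 kept, 0 high and a median of -0.05. The jasmonate-linked defensin gene PDF1.2b had 1112 and 1455 on the high arrays, 1116 and 1163 on the partners, and 835, 1047 and 1326 on the 6. With so few members named, these lists do not describe either hormone pathway.

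Detoxification enzymes were read as 3 lists. Of 12 cytochromes P450, all of the CYP71B family, 1 was high, 7 were positive in both groups and 5 were above all of the other 6. Of 28 UDP-glycosyltransferases 0 were high and 14 were positive in both groups. UGT76B1, known to modify a defence signal, had 102 and 124 on the high arrays, 52.0 and 44.7 on the partners, and 44.1, 59.5 and 87.8 on the 6. Of 11 glutathione transferases 3 were positive and 6 negative in both groups, with a median of -0.25. GSTU20 had 1259 and 1482 on the high arrays, 1564 and 2117 on the partners, and 1850, 2013 and 2391 on the 6, so both high arrays lay below all of the 6.

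Of 20 expansins and xyloglucan transferases, which loosen and rebuild growing walls, 0 were positive and 12 were negative in both groups, with a median of -0.16. XTH26 had 17.9 and 18.7 on the high arrays, 37.7 and 32.3 on the partners, and 23.8, 37.5 and 45.8 on the 6. Plastid-encoded genes had a median of 0.14 over 67 genes, with 38 positive in both groups. The 5 reference genes had a median of 0.12, and GAPC2, a glycolytic enzyme, had 4878 and 4845 on the high arrays, 4661 and 4236 on the partners, and 4400, 5030 and 5300 on the 6. The tissue lists were small: 3 of 22 root loci and 3 of 14 leaf loci were kept, with medians of -0.41 and 0.12. None of their 6 genes was above or below all of the other 6 on both high arrays. EXPA7, a root hair expansin, had 32.3 and 33.9 on the high arrays, 52.7 and 42.3 on the partners, and 32.1, 45.1 and 57.2 on the 6. The part of the tissue mix in these differences was not tested.

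**Figure D4:**
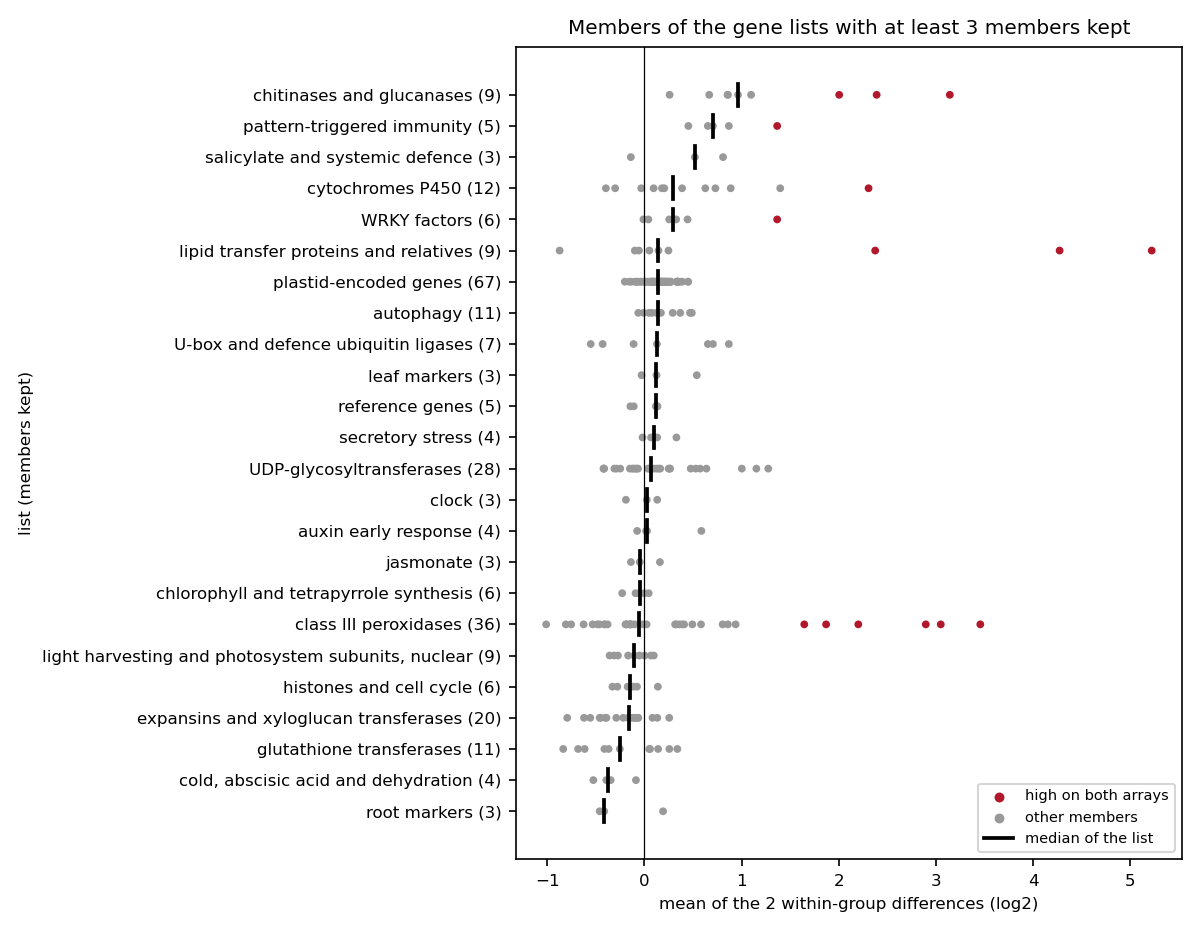
Mean of the 2 within-group differences (x axis, log2) for each member kept of the 24 gene lists with at least 3 members (y axis, members kept in brackets); red points are high on both arrays and bars are list medians. The list of chitinases and glucanases has the highest median, 0.96, and the reference genes lie close to 0.

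Of the 6 named low genes, AT3G28550, an extensin-like proline-rich wall protein, had the largest difference. Its signal was 13.4 and 14.5 on the high arrays, 65.7 and 41.4 on the partners, and 24.1, 49.5 and 55.4 on the other 6. AT1G80130, a tetratricopeptide repeat protein, had 68.6 and 31.0, against 144 and 122 on the partners and 131, 212 and 292 on the 6. In both genes the high arrays were below all 8 others, as in 7 of the 11 low probe sets. AT2G16005, with a lipid recognition domain, had differences of -1.01 and -1.63, and AT5G16980, a dehydrogenase, -1.33 and -1.08. AT4G36470, a methyltransferase, had -1.05 and -1.23, and AT1G76280 had -1.01 and -1.11. With a constant of 16, AT2G16005, AT5G16980, AT4G36470 and AT1G76280 had mean differences of -0.66, -0.68, -0.68 and -0.64. At that constant they would not be called low. The unnamed probe sets 254232_at and 267457_at had -1.41 and -1.71, and -1.15 and -2.29. Of the 11 low probe sets, 7 were below all of the other 6 arrays on both high arrays, against 7.25% of all probe sets. The call rule used the signals of these 2 arrays, so this count is a description.

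Against the other 6 arrays, 115 of the 119 high probe sets lay above all 6 on both high arrays, and 6.57% of all probe sets did. The rule used the signals of the 2 high arrays and of their partners, so this count and the partner counts that follow are descriptions. Shares over all probe sets were not computed for the partner counts. The named exceptions were AT1G49570, AT5G40590 and AT1G25400. In 116 of the 119 both partners were at or below the highest of the 6, and in 60 both were within the range of the 6. In 59 at least 1 partner was below all 6, and this was 24 h control Rep2 in 41 and 4 h dexamethasone Rep1 in 27. AT5G03350, a lectin known as salicylate-responsive, was an example of a raised partner, with 126 and 358 on the high arrays, 17.0 and 138 on the partners, and 30.0, 46.9 and 58.4 on the 6. In 35 of the 119, at most 1 of the 8 other arrays reached the level the filter asked for, so these probe sets were kept through the high arrays.

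The call rule did not use the replicate differences of the other 3 groups. The median difference of Rep1 minus Rep2 over the 119 was -0.12 for 24 h dexamethasone, -0.13 for the 0 h control and -0.03 for the 4 h control. Differences of 2-fold or more numbered 5, 14 and 8 in those groups, against 0.432%, 0.810% and 0.542% of all probe sets. The 119 include the 35 that passed the filter only through the high arrays and were weak on the others. The medians and counts were not made without these 35, so no excess over all probe sets is read from them. The SD of the replicate difference over all probe sets was 0.398 in the 24 h control group and 0.394 in the 4 h dexamethasone group, and 0.258 to 0.305 in the other groups. Across all probe sets the differences of the 2 groups had r = 0.420, which was the relation the arrays were chosen for, and for the 9 other pairs of groups the size of r was 0.003 to 0.181.

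The high genes were also compared between the groups of the other 6 arrays. The signals of the 4 arrays did not enter these fits, but the filter that chose the 14575 probe sets used all 10 arrays. In limma over the 6, 652 probe sets (4.47%) passed between the 4 h and the 0 h control, with 272 (1.87%) higher and 380 (2.61%) lower at 4 h. Of the 119 high probe sets 0 rose and 2 fell at 4 h. Their median log2 difference was -0.04, and at an unadjusted p below 0.05 there were 5 higher and 14 lower, against 16.7% of all probe sets in either direction. Among the 84 members that the other 8 arrays alone would have kept, 0 rose and 2 fell, with 4 higher and 14 lower at that unadjusted p. The other 35 passed the filter only through the high arrays, and nothing is read from their values on the 6. The named member that fell was AT5G48540, with 30.9 and 33.8 in the 4 h control, against 72.1 and 76.6 in the 0 h control. It fell by 1.10 (SE 0.157, limma adjusted p = 0.000894). The unnamed member was 266364_at, which fell by 0.78 (limma adjusted p = 0.0491). With dexamethasone at 24 h against the 0 h control, which differ in both time and agent, 1 probe set of 14575 (0.00686%) passed and 0 of the 119, where the smallest adjusted p was 0.102. At an unadjusted p below 0.05 there were 3 higher and 13 lower among the 119, and 2 and 13 among the 84, against 5.78% of all probe sets in either direction. None of the 11 low probe sets passed in limma in either test, with 1 and 6 at an unadjusted p below 0.05, where the shares of all probe sets were 16.7% and 5.78%.

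List members were read the same way in the 4 h against 0 h control test. Of 36 peroxidases, 9 chitinases and glucanases, 5 genes of pattern-triggered immunity and 6 WRKY factors, 0 passed in limma. The smallest adjusted p in limma were 0.0639, 0.234, 0.0990 and 0.539. Over all probe sets 4.47% passed. Members kept only through the high arrays were not taken out of these lists, so nothing is read from the counts of 0. In the lipid transfer list 2 of 9 fell, neither of them a high gene, where 2.61% of all probe sets fell. Of 67 plastid-encoded genes 21 rose, where 1.87% of all probe sets rose.

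In the study's own comparisons, 1 of the 2 high arrays lies in the dexamethasone group at 4 h and the other in the control at 24 h. The members were chosen for a high signal on these arrays and a low one on their partners, so the directions given here follow from the choice and are a description. With all 10 arrays the 119 probe sets had a median of 0.62 for dexamethasone minus control at 4 h, with 117 above 0, and -0.74 at 24 h, with 5 above 0. In limma 1 of 14575 (0.00686%) passed at each time, and 0 of the 119. Among them the smallest adjusted p was 0.706 at 4 h and 0.999 at 24 h, and at an unadjusted p below 0.05 there were 8 and 4, where the shares of all probe sets were 7.01% and 3.09%. Without both arrays, an alternative chosen after the data were seen, the median was -0.16 at 4 h, with 31 above 0, and 0.25 at 24 h, with 95 above 0. This fit still uses the partners, whose low signals the call rule also used, so it is no independent estimate of the effect of dexamethasone. Again 0 passed, with smallest adjusted p of 0.176 and 0.421, and 5 and 20 at an unadjusted p below 0.05, where the shares of all probe sets were 4.398% and 3.81%. In this fit the group of each array left out holds 1 array, whose spread is taken from the other groups.

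For the 3 leading genes, too, both sets of values rest on the arrays that the choice used, and they are given side by side only to show their size. For AT4G12500 dexamethasone minus control was 2.21 at 4 h (limma adjusted p = 0.782) and -2.28 at 24 h (adjusted p = 0.999) with all arrays, and -0.33 and 0.40 without both. For AT5G64120 it was 1.61 and -1.19 with all arrays, and -0.23 and 0.43 without both. For AT2G43620 it was 0.95 and -1.10 with all arrays, and -0.55 and 0.54 without both. None of these values passed in limma. The test of the difference between the 2 times passed for 0 probe sets in limma, with 799 at an unadjusted p below 0.05 and a smallest adjusted p of 0.832.

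**Figure D5:**
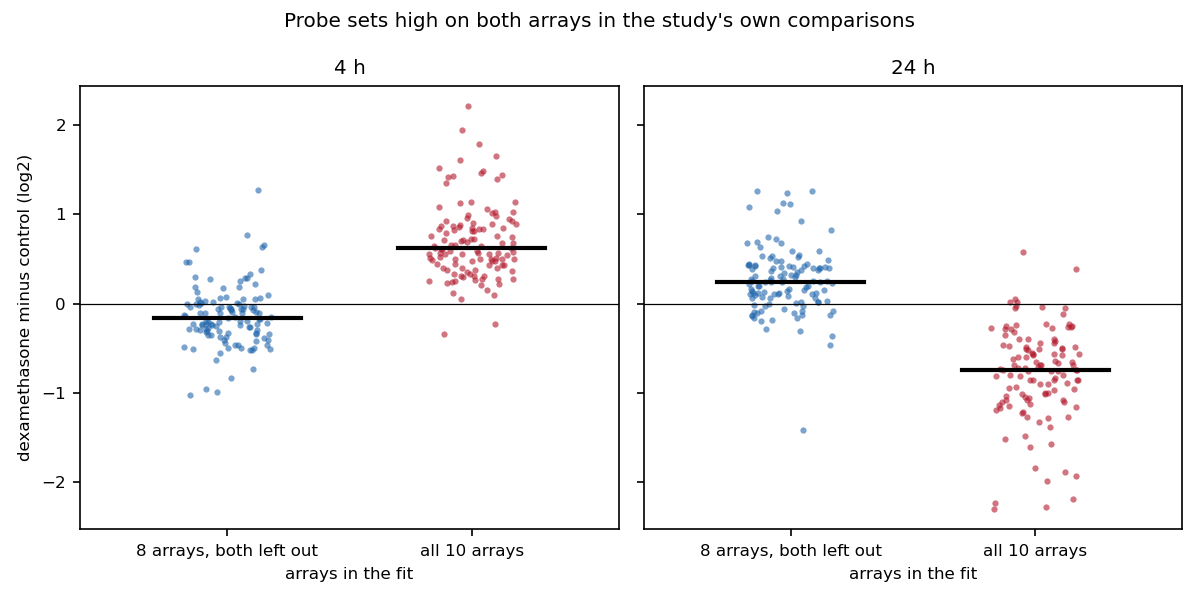
Dexamethasone minus control (y axis, log2) of the 119 high probe sets at 4 h (left panel) and 24 h (right panel), fitted to 8 arrays without both high arrays (blue) and to all 10 arrays (red), with medians as bars. The medians are -0.16 and 0.62 at 4 h, and 0.25 and -0.74 at 24 h, for 8 and 10 arrays.

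Measures of array and RNA quality were compared in the same way. Across probe sets, Rep1 and Rep2 of a group had r from 0.970 to 0.987. The 3' to 5' ratios of GAPDH and actin probe sets on both high arrays were within the range of the other 6, and that of ubiquitin was 1.02 on 24 h control Rep1, below the 1.04 to 1.23 of the 6. The 25S rRNA probe set gave 700 and 4027 on the high arrays, 913 and 1437 on the partners, and 532 to 2964 on the 6, so 4 h dexamethasone Rep2 was the highest of all and 24 h control Rep1 was not. The median signal was 35.9 and 33.9 on the high arrays, 34.7 and 34.8 on the partners and 34.4 to 35.9 on the 6. The part of these measures in the defence pattern was not tested.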

How the data were processed

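RNA of whole seedlings was measured on 10 Affymetrix ATH1 arrays, 1 per sample, in 5 groups of 2. The deposited values are linear signal intensities, which per the submitters' processing notes the authors computed by MAS5 (GCOS); tool versions are not given in the sources. From the values, all arrays share 1 trimmed mean, so a global scaling preceded deposit. There are no detection calls: weak signals may be background, and precision is limited by the number of arrays. The table holds 22810 probe sets, 64 of them controls. Of the other 22746, 13513 had 1 gene in the platform annotation, 503 had several and 8730 had none. Symbols were updated through the RefSeq gene table of TAIR10.1, and a locus with several probe sets was represented by the brightest.

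Signals were transformed to log2(signal + 4.35), the constant being percentile 20 of all values, which understates differences of weak probe sets. The filter kept a probe set whose signal exceeded percentile 40 of the array on 2 or more arrays, and 14575 passed. The contrast of the 2 high arrays is the mean of 2 within-group differences and was not tested. Other comparisons used limma 3.58.1 in R 4.3.3 (lmFit, eBayes with trend, 1 mean per group), two-sided, with Benjamini-Hochberg adjustment over all probe sets kept and a threshold of 0.05; limma was tested on simulated data first. Python 3.11.15 with pandas 2.3.3 and matplotlib 3.10.9 made tables and plots. Alternatives were the constant, the filter, quantile normalization, the threshold, the trend, a replicate block, leaving out each array, and leaving out both high arrays.

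The members and lists were chosen with earlier results of these data known. The text names genes by a rule: the 20 largest and 15 smallest mean differences among the named calls, the 3 leading genes, up to 5 members of each list, at most 2 unnamed probe sets on each side and 5 genes most like each leading gene. Genes at the threshold, cluster neighbours, exceptions, further members given as examples of their role, 266364_at and AT4G22460 were chosen after their values were seen.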

Additional observations from a re-analysis of the deposited data

How the results depend on the processing

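Of 74 named genes called on both arrays, 0 changed direction with quantile normalization. Another constant or either group alone also gave 0, but that was fixed in advance. The call rule asks for the same sign in both groups, and a constant cannot reverse a difference. The mean difference of the 74 genes moved by more than the spread between the 2 groups in 15 with a constant of 1, in 35 with a constant of 16 and in 1 with quantile normalization. The count of 130 probe sets (119 high, 11 low) was 87 (85 and 2) with a constant of 16 and 162 (141 and 21) with a constant of 1, so the number of low calls depends on the constant. It was 207 (160 high, 47 low) with no filter, 82 (79 and 3) with the filter at percentile 60, and 419 (310 and 109) with a threshold of about 1.5-fold, since these alternatives change which probe sets can be called. In the 24 h control group alone it was 335 and in the 4 h dexamethasone group alone 361.

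The count between the 4 h and the 0 h control was 652, and it was 317 with no filter, 299 without the trend and between 333 and 575 with 1 array left out (333 without 4 h control Rep1, 345 without Rep2). For dexamethasone at 24 h against the 0 h control, 1 became 3 with a constant of 16, 5 with quantile normalization, and between 1 and 24 with 1 array left out (17 without 0 h control Rep1, 24 without Rep2, 5 without 24 h dexamethasone Rep2). For dexamethasone against control, leaving out 1 array gave between 1 and 80 at 4 h (80 without Rep1 of 4 h dexamethasone, 2 without Rep2) and between 1 and 8 at 24 h (8 without Rep2 of the 24 h control). Without both high arrays the count at 4 h was 3. The cause of these moves was not tested.

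Without Rep2 of 4 h dexamethasone, or without both high arrays, dexamethasone minus control at 4 h was -0.33 for AT4G12500, -0.23 for AT5G64120 and -0.55 for AT2G43620. Without Rep1 of the 24 h control, or without both, the values at 24 h were 0.40, 0.43 and 0.54. Each has the opposite sign to the value over all 10 arrays, since the high array of that comparison is left out. The genes were chosen for their signals on these arrays and their partners, so this is no independent sign of instability. With 1 array left out, AT4G12500 ranged between -0.33 and 4.76 at 4 h and between -4.96 and 0.40 at 24 h. AT5G64120 ranged between -0.23 and 3.45 and between -2.81 and 0.43, and AT2G43620 between -0.55 and 2.46 and between -2.74 and 0.54.

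With the replicate number as a block, the counts were 678 for the 4 h against the 0 h control and 1 in each of the other 3 comparisons. Replicate differences correlated between -0.42 and 0.18 over the pairs of groups. The -0.42 is that of the 24 h control and 4 h dexamethasone groups, the relation the arrays were chosen for. These values cannot settle whether the numbers pair the samples. Of the 652, 619 also passed with the block, and no named value lost or gained a call with it.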

Other observations

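Further named loci differed by 2-fold or more in one of the 2 groups only. In the 24 h control group 61 such loci were higher on Rep1, and 50 of them were also positive in the 4 h dexamethasone group, where their median was 0.56. On the lower side there were 31, of which 26 were also negative in the 4 h dexamethasone group, with a median of -0.43. In the 4 h dexamethasone group 60 loci were higher on Rep2, and 46 of them were positive in the 24 h control group, with a median of 0.36. Another 61 were lower on Rep2, and 42 of them were negative in the 24 h control group, with a median of -0.19. Over all probe sets the median was -0.01 in the 24 h control group and -0.04 in the 4 h dexamethasone group. The arrays were chosen for the relation between these 2 differences, so the shared directions follow from the choice and are a description.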
